A study of Mus musculus with 6 samples.

Results

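Most of the genes described here encode proteins of the nucleolus that process ribosomal RNA (rRNA) or subunits of RNA polymerase I (Pol I). They were chosen by symbol alone, as all genes whose symbol starts with Nop, Utp, Rrp, Noc, Nol or Polr1 followed directly by a number or, for Polr1, a letter, with pseudogenes left out. The rule took 45 of the 27179 genes in the deposited count table. The RNA-seq data comprise 6 libraries of germinal center (GC) B cells sorted from the spleens of C57BL/6 mice, of which 3 came from WT mice and 3 from mice deficient in the IL-21 receptor (Il21r-/-). All mice had been immunized with NP-KLH, a hapten coupled to a carrier protein, in alum. There was 1 library per genotype on each of days 7, 10 and 14 after immunization, so no genotype had a replicate within a day, and the comparison asked how expression in GC B cells depends on IL-21 signaling. The cells were sorted as NP-binding, IgG1+ and CD38- B cells that lacked IgM, IgD, CD138 and Gr1. The sample labels give 1 independent mouse per library, whereas the methods give more mice per genotype than libraries and more than 1 immunization, and the description of the sort gives several mice of each genotype on day 7. The sources thus differ on the number of mice behind a library. The methods also describe irradiated congenic hosts reconstituted with WT or Il21r-/- bone marrow for nearly all experiments and do not single out the RNA-seq, so part of the tissue around the sorted cells may have been of host origin. The sources describe the mice of all experiments as matched for age and sex and of both sexes, and do not give the age or sex for single libraries. The reads counted on genes numbered 27435124, 23827410 and 21353438 for WT, in the order of the days, and 23938323, 25664411 and 26200417 for Il21r-/-.

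Ribosomes are built in the nucleolus, where Pol I transcribes a long precursor of the rRNAs of both ribosomal subunits. Small nucleolar ribonucleoproteins (snoRNPs) guide chemical modification of the precursor, and large assemblies of processing factors fold and cleave it into the RNA of the small and of the large subunit. GC B cells alternate between rapid division and selection by T cells, and dividing cells must double their ribosomes in each cycle. Myc, which is switched on in selected GC B cells, is a well known activator of genes of this pathway.

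The targeted gene, Il21r, checked the genotype labels. It had 345.8, 263.0 and 246.6 CPM (read counts scaled to the normalized library size) in WT on days 7, 10 and 14, and 105.8, 127.6 and 112.7 in Il21r-/-. All 3 Il21r-/- libraries therefore lay below all 3 WT libraries, and the transcript was not absent from them. A log2 fold change above 0 stands for higher expression in WT, and ± gives 1 standard error. Over 3 days that of Il21r was 1.29 ± 0.13, with an adjusted p of 0.00137 (edgeR's quasi-likelihood test, Benjamini-Hochberg adjustment over 11005 genes). The labelled cell type was checked against marker lists. The list for the sorted cells held 8 markers, some of the GC state, among them Bcl6, Mef2b and S1pr2. Others, such as Ms4a1, Cd79a and Cd79b, are shared by B cells in general. Together the 8 summed to 13086, 10782 and 10568 CPM in WT on days 7, 10 and 14. In Il21r-/- they summed to 14743, 12168 and 11676, so that their sum was higher in Il21r-/- on each day. Ms4a1 was the most abundant, with 31.4% of the summed mean CPM, and none of the 8 was at 0 in any library. The sum therefore does not tell GC B cells from other B cells. Of these 8, 0 passed the test with a linear day (3 had an unadjusted p under 0.05), while with day as a block Bcl6 and Mef2b were called higher in WT and Cd79a, Cd79b and Fas higher in Il21r-/-. The 8 T cell markers summed to 1.73 to 4.01 CPM with Thy1 as the most abundant, the 8 myeloid markers to 2.52 to 8.77 CPM with Lyz2 as the most abundant and Mpo at 0 in all libraries, and the 5 matched erythroid markers to 4.80 to 33.6 CPM with Hba-a2 as the most abundant. The T cell and myeloid sums were higher in Il21r-/- on each day, and the erythroid sum was on days 7 and 14 but not on day 10. Among these 3 lists the single call was Adgre1, higher in Il21r-/- with day as a block. In that fit 22.9% of all genes were called in either direction.

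Of the 45 members, 42 passed the filter on low counts, which used the average over all 6 libraries, and were tested. Most of them were slightly higher in WT. The log2 fold change over 3 days was above 0 for 35 of the 42, against 48.2% of all 11005 genes tested, and its median was 0.16 for the members and −0.01 for all genes. The members ranged from −0.22 for Nop53 to 0.53 for Utp14b, with a median standard error of 0.11. WT lay above Il21r-/- on all 3 days for 28 of the 42 members, which is 66.7% against 25.4% of all genes, and Il21r-/- lay above WT on all 3 days for 2 members, Nop53 and Polr1c, against 27.9% of all genes. Every WT library was above every Il21r-/- library for 12 members (28.6% against 8.33% of all genes), and the reverse held for 1, Nop53 (10.0% of all genes). In a bulk measurement of sorted cells, fewer cells of a type with high expression and less RNA of these genes per cell cannot be told apart.

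Whether these differences passed the test depended on how day was modelled. With a linear effect of day, 0 of the 42 members passed an adjusted p of 0.05 in edgeR's quasi-likelihood test, where 1.4% of all genes were called higher in WT, 4.52% higher in Il21r-/- and 5.92% in either direction. In that test 9 members had an unadjusted p under 0.05, 8 of them higher in WT, as did 2356 of all 11005 genes, 914 of them higher in WT. DESeq2's Wald test and edgeR's likelihood ratio test also called 0 members, with 10 and 11 members at an unadjusted p under 0.05. Of the 11005 genes these tests called 951 and 1193, and 2128 and 2412 had an unadjusted p under 0.05. The days pair the libraries of the 2 genotypes, and with day fitted as a block 13 of the 42 members were called, of which 12 were higher in WT and Nop53 was higher in Il21r-/-. The 12 are 28.6% of the members tested, against 9.33% of all genes called higher in WT in that fit. The 1 member stands against 13.6% of all genes called higher in Il21r-/-, and 22.9% of all genes were called in either direction. The 2 fits also differed in how far the variance of a gene was drawn from the other genes. The prior degrees of freedom for this ran from 3.58 to 5.73 with a linear day and from 0.20 to 29.1 with day as a block. How far the added calls came from the pairing or from this was not tested.

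The count of called members rested on single libraries and days. With a linear day and without the Il21r-/- library of day 10, 9 members were called higher in WT, 7 of them among the 12 above, where 8.70% of all genes were. Without any 1 of the other 5 libraries 0 members were called, and only 0.22% to 1.08% of all genes were called higher in WT. With day as a block and both libraries of day 7 left out, 9 members were called higher in WT, 7 of them among the 12 above, against 7.69% of all genes. Without day 10 there were 4, all among the 12, against 5.89% of all genes, and without day 14 there were 0, against 2.90%. The member called higher in Il21r-/-, Nop53, was not called when any of the 3 days was left out. These fits without a day were chosen after seeing the data.

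**Figure D1:**
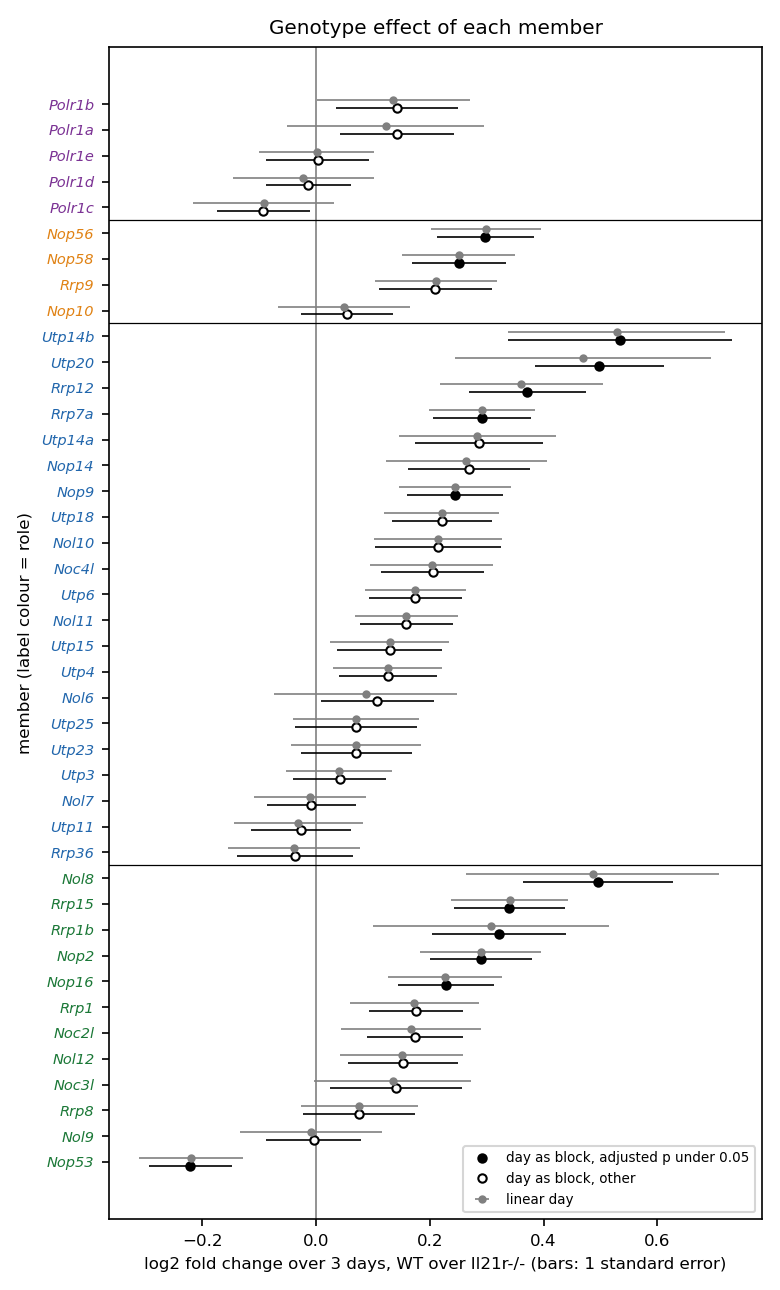
Log2 fold change over 3 days (WT over Il21r-/-, horizontal axis) of the 42 tested members with 1 standard error as bars, grouped by role, from the fit with a linear day (grey) and the fit with day as a block (black, filled where the adjusted p is under 0.05). Of the 42 members 35 lie to the right of 0, and the 13 filled points are Nop53 on the left and 12 members on the right.

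**Figure D2:**
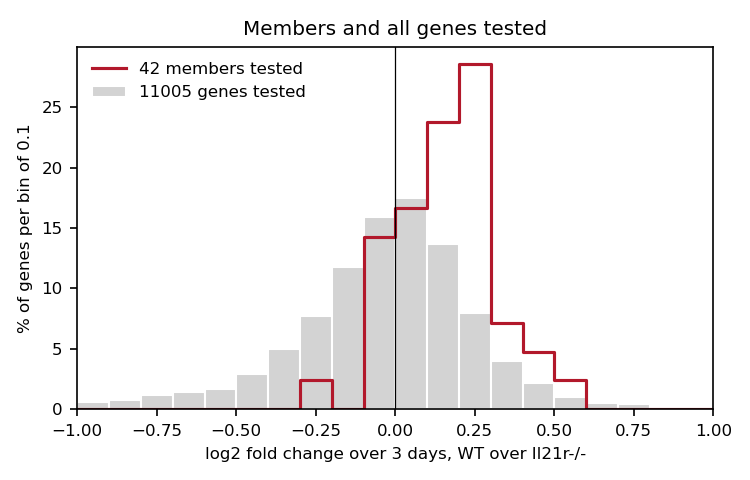
Share of genes in bins of 0.1 of the log2 fold change over 3 days (WT over Il21r-/-), for the 42 members (red line) and all 11005 genes tested (grey bars). The members centre on a median of 0.16 and all genes on −0.01, and genes beyond −1 and 1 are not drawn.

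The 5 Pol I subunits taken by the symbol rule had the median closest to 0 of the 4 roles. Their log2 fold changes were 0.12 for Polr1a and 0.14 for Polr1b, which encode the largest subunits and together form the active site, 0.00 for Polr1e, −0.02 for Polr1d and −0.09 for Polr1c. The median of the 5 was 0.00, and 0 of them had an unadjusted p under 0.05 with either form of the day term. With a linear day and without the Il21r-/- library of day 10, Polr1a was called higher in WT, where 8.70% of all genes were. Polr1c encodes a subunit that Pol I shares with Pol III. It had 96.7, 87.8 and 121.9 CPM in WT on days 7, 10 and 14, and 98.8, 93.8 and 135.2 in Il21r-/-. The libraries of a day were thus close to each other, with Il21r-/- slightly above WT each time, and day 14 was the highest in both genotypes. The adjusted p of Polr1c was 0.726 with a linear day and 0.455 with day as a block (edgeR's quasi-likelihood test), and its log2 fold change turned to 0.01 without the Il21r-/- library of day 14. Polr1d, which encodes another subunit shared with Pol III, had 402.5, 384.6 and 439.1 CPM in WT and 438.1, 346.0 and 460.5 in Il21r-/-. It was higher in WT on day 10 only, and its sign changed without the Il21r-/- library of day 7 (0.11) or of day 14 (0.07) and without the WT library of day 10 (0.02).

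The 4 snoRNP proteins had log2 fold changes above 0, with a median of 0.23. With day as a block 2 of the 4 were called higher in WT, where 9.33% of all genes were. Nop56 and Nop58 are core proteins of the box C/D snoRNPs, which methylate rRNA with fibrillarin. Nop56 (Entrez 67134, chromosome 2, 130274367 to 130279313 of GRCm38.p6) had 62.9, 77.6 and 82.5 CPM in WT on days 7, 10 and 14, and 52.2, 61.3 and 67.8 in Il21r-/-. WT was higher on each day, while the Il21r-/- library of day 14 lay above the WT library of day 7. Over 3 days the log2 fold change of Nop56 was 0.30 ± 0.10, with an adjusted p of 0.117 for a linear day and 0.0101 for day as a block (edgeR's quasi-likelihood test). Nop58 (Entrez 55989, chromosome 1, 59684961 to 59711510) had 137.3, 163.0 and 196.8 CPM in WT and 130.7, 136.8 and 146.4 in Il21r-/-. Its genotypes were close on day 7 and furthest apart on day 14. This came to a log2 fold change of 0.25 ± 0.10, and an adjusted p of 0.19 for a linear day and 0.0262 for day as a block (edgeR's quasi-likelihood test). Over the other alternatives of these tests, the adjusted p of the 2 genes ran from 0.0288 to 0.68 with a linear day and from 0.00545 to 0.437 with day as a block. Rrp9, a protein of the U3 snoRNP, stood at 0.21 ± 0.11. Nop10, a small protein of the box H/ACA snoRNPs that make pseudouridine, at 0.05 ± 0.12, which turned to −0.05 without the Il21r-/- library of day 10 and to −0.01 without the WT library of day 7.

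Factors of the small subunit made up the largest role, with 21 members, all tested. Of these, 18 had a log2 fold change above 0 (85.7%, against 48.2% of all genes) and 16 were higher in WT on all 3 days (76.2%, against 25.4%). The median log2 fold change was 0.17, and 9 members had every WT library above every Il21r-/- library (42.9%, against 8.33% of all genes). With day as a block 5 were called, namely Utp20, Rrp12, Rrp7a, Nop9 and Utp14b. All 5 were higher in WT (23.8% of this role, against 9.33% of all genes). Utp20 encodes a very large scaffold protein of the small subunit processome, the assembly that forms on the precursor. Utp20 (Entrez 70683, chromosome 10, 88746607 to 88826814) had 24.3, 33.9 and 28.9 CPM in WT on days 7, 10 and 14, and 17.8, 28.7 and 16.3 in Il21r-/-. The genotypes differed least on day 10, when both were at their highest, and the Il21r-/- library of that day lay above the WT library of day 7. The log2 fold change was 0.47 ± 0.22 with an adjusted p of 0.274 for a linear day, and 0.50 ± 0.11 with an adjusted p of 0.00175 for day as a block (edgeR's quasi-likelihood test). With a linear day the fold change of Utp20 moved to 0.23 without the Il21r-/- library of day 14 and to 0.77 without that of day 10. Rrp12, an export and maturation factor of the pre-ribosome (Entrez 107094, chromosome 19, 41859483 to 41896153), had 32.5, 35.5 and 31.9 CPM in WT and 23.6, 31.2 and 23.0 in Il21r-/-. Its genotypes did not overlap. Over 3 days the difference was 0.36 ± 0.14, with an adjusted p of 0.191 for a linear day and 0.00849 for day as a block (edgeR's quasi-likelihood test).

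Rrp7a (Entrez 74778, chromosome 15, 83115846 to 83122801), which encodes a processome component, had 65.5, 69.8 and 70.2 CPM in WT and 55.1, 57.0 and 55.9 in Il21r-/-. Within a genotype the libraries of the 3 days were close, and the genotypes did not overlap. On the log2 scale the difference was 0.29 ± 0.09, with an adjusted p of 0.114 for a linear day and 0.013 for day as a block (edgeR's quasi-likelihood test). Nop9 (Entrez 67842, chromosome 14, 55745693 to 55755634) had 124.7, 121.8 and 102.1 CPM in WT and 96.2, 100.6 and 96.5 in Il21r-/-. It encodes an RNA-binding protein of the same pathway, and its difference was smallest on day 14, although the genotypes did not overlap. Its log2 fold change was 0.24 ± 0.10, with an adjusted p of 0.199 for a linear day and 0.0328 for day as a block (edgeR's quasi-likelihood test). Utp14b (Entrez 195434, chromosome 1, 78657825 to 78667601) had 3.55, 4.31 and 5.76 CPM in WT and 2.62, 3.47 and 3.21 in Il21r-/-, which makes it the lowest of the tested members. Here too the genotypes did not overlap, by a margin of less than 0.1 CPM between the WT library of day 7 and the Il21r-/- library of day 10. At 0.53 ± 0.19 its log2 fold change was the largest of all, with an adjusted p of 0.156 for a linear day and 0.0474 for day as a block (edgeR's quasi-likelihood test). Utp14b is a copy of Utp14a, and reads of the 2 genes could be split between them, so the value of each is uncertain. Utp14a itself stood at 0.28 ± 0.14. Over the other alternatives, the adjusted p of the 5 called small subunit genes ran from 0.00369 to 0.742 with a linear day and from 6.5e-05 to 0.427 with day as a block. Rrp36, at the other end of this role, stood at −0.04 ± 0.12, which turned to 0.07 without the Il21r-/- library of day 14.

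The 12 large subunit factors had a median log2 fold change of 0.17, and 10 of the 12 were above 0. The fit with day as a block called 6, of which 5 were higher in WT and Nop53 was the exception. These 5 make up 41.7% of this role, while 9.33% of all genes passed in the direction of WT in that fit. In the direction of Nop53, 13.6% of all genes passed. Rrp15 (Entrez 67223, chromosome 1, 186721086 to 186749358) had 35.0, 36.0 and 42.8 CPM in WT on days 7, 10 and 14, and 27.7, 28.5 and 33.7 in Il21r-/-. Its genotypes did not overlap, and the difference was of one size on the 3 days (0.34 on each). The log2 fold change over 3 days was 0.34 ± 0.10, with an adjusted p of 0.0964 for a linear day, the lowest of all members, and 0.0105 for day as a block (edgeR's quasi-likelihood test). Nop2 (Entrez 110109, chromosome 6, 125131883 to 125144753), which encodes a methyltransferase of the large subunit rRNA, had 52.1, 62.7 and 62.4 CPM in WT and 44.4, 51.4 and 48.9 in Il21r-/-. The genotypes did not overlap. For Nop2 the log2 fold change was 0.29 ± 0.11, with an adjusted p of 0.162 for a linear day and 0.0174 for day as a block (edgeR's quasi-likelihood test). Nop16 (Entrez 28126, chromosome 13, 54584191 to 54590097) had 76.4, 86.4 and 98.8 CPM in WT and 64.4, 67.0 and 93.9 in Il21r-/-. Both genotypes were highest on day 14, where they were also closest. Its log2 fold change was 0.23 ± 0.10, with an adjusted p of 0.237 for a linear day and 0.0496 for day as a block (edgeR's quasi-likelihood test).

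Nol8 (Entrez 70930, chromosome 13, 49653078 to 49679016) had 10.59, 18.01 and 16.86 CPM in WT and 8.99, 13.6 and 9.43 in Il21r-/-. It was low on day 7 in both genotypes and differed most on day 14, where its log2 fold change was 0.84. Over 3 days it was 0.49 ± 0.22, with an adjusted p of 0.253 for a linear day and 0.00583 for day as a block (edgeR's quasi-likelihood test). Single libraries moved the fold change of Nol8 with a linear day, to 0.24 without the Il21r-/- library of day 14 and to 0.72 without the WT library of day 7. Rrp1b, a paralog of Rrp1 (Entrez 72462, chromosome 17, 32036162 to 32062865), had 13.9, 23.3 and 23.5 CPM in WT and 12.3, 20.4 and 15.6 in Il21r-/-. Its day 7 libraries were the lowest of both genotypes. For Rrp1b the log2 fold change was 0.31 ± 0.21, with an adjusted p of 0.44 for a linear day and 0.0465 for day as a block (edgeR's quasi-likelihood test). It was 0.09 without the Il21r-/- library of day 14 and 0.54 without that of day 10, so its size rested on single libraries. Nop53 (Entrez 68077, chromosome 7, 15937835 to 15946108), whose product recruits the RNA exosome to the maturing large subunit, had 405.4, 367.9 and 375.7 CPM in WT and 457.5, 450.8 and 429.5 in Il21r-/-. Every Il21r-/- library lay above every WT library, while 35 of the 42 members had a fold change in the other direction. Its log2 fold change was −0.22 ± 0.09, with an adjusted p of 0.21 for a linear day and 0.0265 for day as a block (edgeR's quasi-likelihood test). Over the other alternatives, the adjusted p of the 6 called large subunit genes ran from 0.0219 to 0.91 with a linear day and from 0.00122 to 0.522 with day as a block.

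**Figure D3:**
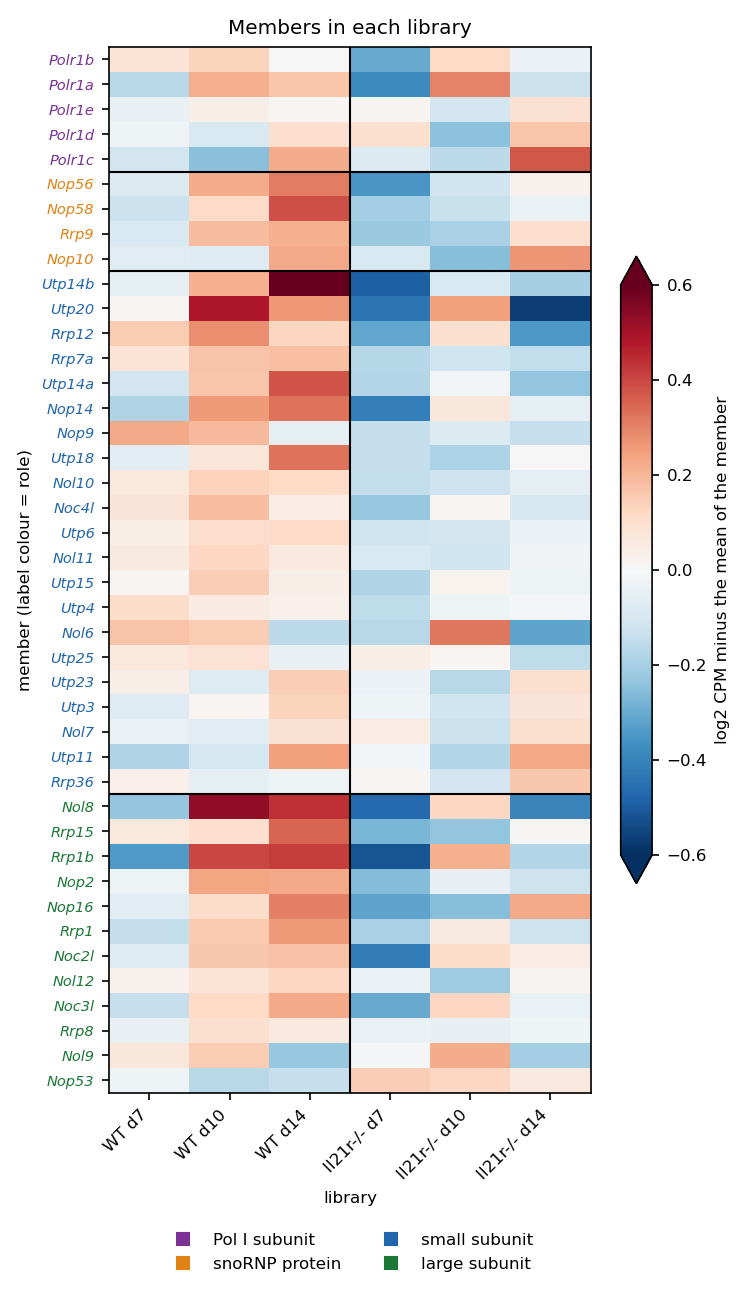
Each row is 1 of the 42 tested members and each column 1 library (days 7, 10 and 14 of WT, then of Il21r-/-). Colour gives the log2 CPM of the library minus the mean of that member over the 6 libraries (colours end at −0.6 and 0.6), and the WT columns of days 10 and 14 hold the most members above their own mean, 34 and 36 of 42.

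Since several members were higher in WT together, their promoters were searched for 2 words. RefSeq promoter windows (GRCm38.p6, 300 bases around a start) were held for 37 of the 45 members. The first word, CACGTG, is the palindromic E-box that Myc and Max can bind and reads the same on both strands. It lay in the windows of 8 of the 37 members (21.6%), against 8.09% of the 27025 genes with a window, tested here or not. The second, CACGCG on one strand or CGCGTG on the other, lay in 12 members (32.4%), against 10.5% of all genes. The member windows were richer in G and C (median 59.3%) than all windows (52.7%), and the part of base composition in these shares was not tested. A match is only a match of letters and says nothing of binding. Of the members called with day as a block, Rrp7a, Utp14b, Nop2 and Utp20 held CACGTG. The windows of the first 3 by adjusted p with a linear day are shown to place the word, which is in capitals, and each is written 5′ to 3′ on the strand of the gene: chr15:83122752-83123051 on the minus strand for Rrp7a, chr1:78658190-78658489 on the plus strand for Utp14b and chr6:125131633-125131932 on the plus strand for Nop2.
Rrp7a: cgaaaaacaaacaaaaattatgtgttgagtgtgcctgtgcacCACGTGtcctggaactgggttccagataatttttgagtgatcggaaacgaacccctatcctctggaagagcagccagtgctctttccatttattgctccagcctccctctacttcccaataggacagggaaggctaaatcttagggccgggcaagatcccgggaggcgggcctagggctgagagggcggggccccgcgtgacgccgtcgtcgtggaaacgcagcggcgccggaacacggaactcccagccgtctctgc
Utp14b: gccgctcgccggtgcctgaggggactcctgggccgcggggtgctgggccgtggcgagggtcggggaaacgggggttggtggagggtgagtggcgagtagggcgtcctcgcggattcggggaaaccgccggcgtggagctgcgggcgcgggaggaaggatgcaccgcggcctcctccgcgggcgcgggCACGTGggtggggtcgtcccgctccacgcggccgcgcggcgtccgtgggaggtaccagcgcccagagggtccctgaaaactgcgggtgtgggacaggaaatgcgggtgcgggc
Nop2: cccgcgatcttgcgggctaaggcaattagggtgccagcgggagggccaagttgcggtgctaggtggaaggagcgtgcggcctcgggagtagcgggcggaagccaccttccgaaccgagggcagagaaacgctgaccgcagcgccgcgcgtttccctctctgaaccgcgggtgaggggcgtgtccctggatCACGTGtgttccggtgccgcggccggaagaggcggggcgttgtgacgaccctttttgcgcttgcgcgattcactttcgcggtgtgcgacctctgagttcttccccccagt
Relative to the start of its window's transcript, the word lay at −208 in Rrp7a, at −63 in Utp14b, at −60 in Nop2 and at 38 in Utp20. The window of Utp14b belongs to a start inside the gene span given above, downstream of its first base. Utp18, Nol11, Utp4 and Utp25 held CACGTG as well and were not called in either form of the test.

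On single days 0 of the 42 members were called. The genotype effect on a day compares 2 libraries, and its error comes from the scatter of all 6 around the additive model. The shares of all genes called were 1.07% on day 7, 3.1% on day 10 and 3.28% on day 14 (edgeR's likelihood ratio test, Benjamini-Hochberg adjustment), and 0, 0 and 5 members had an unadjusted p under 0.05, against 606, 1190 and 1330 of all genes. The log2 fold change was above 0 for 34 members on day 7, 36 on day 10 and 34 on day 14, and its medians were 0.16, 0.18 and 0.12, against 0.00, −0.02 and −0.01 for all genes. The single values spread most on day 14, from −0.19 for Nop53 to 0.84 for Utp14b and Nol8 and 0.83 for Utp20. With the dispersions taken from a fit with day as a block, Nol8, Utp14a and Utp20 were called on day 14, where 3.51% of all genes were called higher in WT. Without the Il21r-/- library of day 10 in the dispersion estimate, Utp20 was called on day 14, where 2.04% of all genes were called higher in WT. The difference in the linear day trend between genotypes gave 0 calls among all 11005 genes (0.0%) and among the members, with 118 genes and 0 members at an unadjusted p under 0.05 (edgeR's quasi-likelihood test). With 1 library left out, this test called 0 members and at most 12 genes (without the WT library of day 7). At most 4 members then had an unadjusted p under 0.05 (without the Il21r-/- library of day 7 or of day 14). No other tool was run on that difference.

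Over time in both genotypes together, 36 of the 42 members had a positive linear day trend, with a median log2 change of 0.02 per day against 0.00 for all genes. None of the members, that is 0, passed the test for the day trend, which 4.43% of all genes did (edgeR's quasi-likelihood test). Of the members 9 had an unadjusted p under 0.05, all with rising values, as did 2587 of all genes, 1100 of them rising, and DESeq2's Wald test called 1, Nop16, where it called 2.58% of all genes as rising. With day as a block, 9 members were higher on day 14 than on day 7 (21.4%, against 12.6% of all genes) and 0 were higher on day 7 (13.6% of all genes), and in that fit 18 members and 4156 of all genes had an unadjusted p under 0.05. The 9 were Nop16, Polr1c, Rrp1b, Nop56, Noc2l, Nop58, Nop14, Nop10 and Utp11. Nop16 had the lowest adjusted p of these, at 0.00151 in edgeR's quasi-likelihood test of that fit, and a log2 fold change of 0.46 ± 0.10 between the days. From day 10 to day 14 the members moved both ways. With both libraries of day 7 left out and day as a block, 5 members were called higher on day 14 and 3 higher on day 10 (of all genes 2321 were called, 1270 of them higher on day 14), 25 of the 42 had a change above 0, and the median was 0.02. With a linear day, 8 members were called as rising without the Il21r-/- library of day 10, where 8.83% of all genes were.

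**Figure D4:**
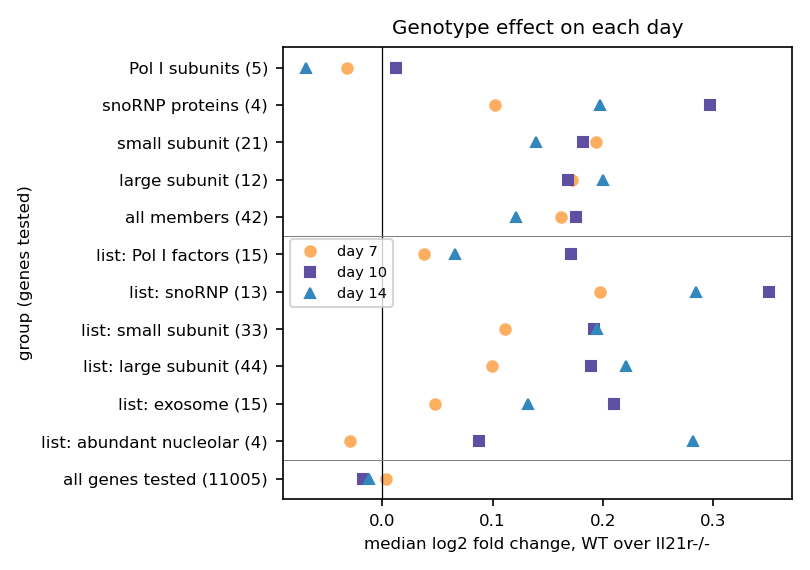
Median log2 fold change (WT over Il21r-/-, horizontal axis) on days 7, 10 and 14 for the members by role, for lists of other genes of the pathway and for all 11005 genes tested, with the number of genes tested in brackets. The medians of the 5 Pol I subunits taken by the symbol rule lie around 0, between −0.07 and 0.01. Those of the other 3 roles of members lie between 0.10 and 0.30. Further Pol I subunits are counted in the list of Pol I factors.

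Levels differed far more between members than between genotypes. Scaled by gene length, the mean over the 6 libraries ran from 0.96 CPM per kilobase for Utp14b to 277.1 for Polr1d. Next to Polr1d stood Nop53 with 266.0 and Nop10 with 213.4 CPM per kilobase, and the ranges of Polr1d (232.8 to 309.9) and Nop53 (236.1 to 293.6) over the libraries overlapped. At the low end, Utp20 had 2.83 and Nol8 3.04 CPM per kilobase, with ranges that also overlapped. Utp14b, Nol8 and Utp20 were both the lowest 3 in level and the highest 3 in log2 fold change. Across the 42 members the Spearman correlation of the length-scaled level with the log2 fold change over 3 days was −0.42, and across all 11005 genes tested it was 0.12. Gene length had a Spearman correlation with the fold change over 3 days of 0.08 across all genes and 0.33 across the members. On single days the values across all genes were 0.22 on day 7, −0.20 on day 10 and 0.22 on day 14, and across the members 0.49, −0.08 and 0.44. The genes of such a correlation share the same 6 libraries and are not replicates, and the part of gene length in the members' differences was not tested.

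**Figure D5:**
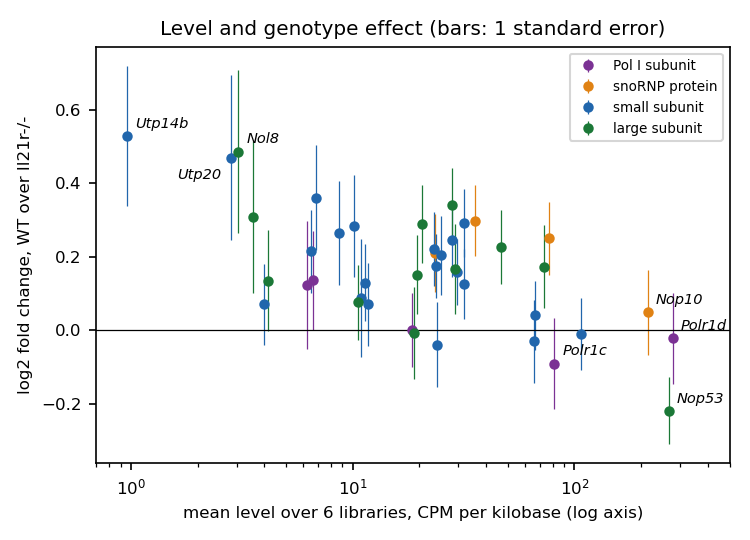
Mean level of each tested member over the 6 libraries (CPM per kilobase of gene length, log axis) against its log2 fold change over 3 days (WT over Il21r-/-, bars of 1 standard error), coloured by role. Utp14b, Utp20 and Nol8 stand at the upper left and Nop53 and Polr1d at the lower right.

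Other genes of the pathway that the symbol rule does not take were described with the same fits, as 6 lists of 124 genes, all tested. Their log2 fold changes were above 0 for 112 of the 124, with a median of 0.17, close to that of the members. With a linear day 0 of them were called by edgeR's quasi-likelihood test and 24 had an unadjusted p under 0.05, against 2356 of all 11005 genes, while DESeq2's Wald test and edgeR's likelihood ratio test each called 2, Rrs1 and Ruvbl2. When day was a block, 26 of the 124 were called, all higher in WT, against 9.33% of all genes called in that direction. Among 15 Pol I factors the median was 0.08 and 1 was called, Polr2f, a subunit shared by the polymerases. Among 13 further snoRNP proteins and assembly factors the median was 0.23 and 4 were called, namely Nolc1, Ruvbl2, Ruvbl1 and Shq1. The 33 small subunit factors had a median of 0.19 and 6 calls, including Ltv1, Pwp2, Wdr43, Wdr46 and Heatr1, and the 44 large subunit factors had a median of 0.20 and 14 calls, including Rrs1, Mrto4, Ftsj3, Rsl1d1 and Gnl3. Of 15 genes of the RNA exosome and its partners, with a median of 0.16, 1 was called, Exosc6. Ncl, Npm1, Npm3 and Tcof1, abundant nucleolar proteins, had a median of 0.09 and 0 calls. Rrs1, which helps to bring the 5S particle into the large subunit, had 73.9, 85.9 and 83.6 CPM in WT on days 7, 10 and 14, and 53.7, 61.9 and 70.5 in Il21r-/-. Its genotypes did not overlap. Over 3 days the log2 fold change was 0.39 ± 0.10, with an adjusted p of 0.0565 for a linear day and 0.00103 for day as a block (edgeR's quasi-likelihood test). For the day trend, 1 of the 124 list genes was called with a linear day, Mrto4. With day as a block 31 of them were higher on day 14 than on day 7, against 12.6% of all genes, and 1 was higher on day 7, against 13.6%.

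Genes of other states of B cells differed between the genotypes in the same libraries. Of 8 genes of dividing cells, all 8 had a log2 fold change above 0, with a median of 0.37. With a linear day 1 was called by edgeR's quasi-likelihood test, Rrm2, while DESeq2's Wald test called 3 and edgeR's likelihood ratio test 4, all higher in WT. With day as a block 6 were called, also all higher in WT. In the same order, these tests called 1.40%, 2.89%, 3.23% and 9.33% of all genes higher in WT. The 8 summed to 2612, 3367 and 3616 CPM in WT on days 7, 10 and 14 and to 2172, 2479 and 2714 in Il21r-/-, with Mcm5 as the most abundant, so that their sum was higher in WT on each day. Of 6 markers of B cells outside the GC, Ccr7 and Klf2 were called higher in Il21r-/- and Ighm higher in WT, in both forms of the test. These 6 summed to 807.3, 524.0 and 391.1 CPM in WT and to 572.9, 516.4 and 390.2 in Il21r-/-, with Ighm as the most abundant and none at 0. Of 6 plasma cell markers 4 were tested. Prdm1 was called higher in WT and Xbp1 higher in Il21r-/- with a linear day. Jchain and Irf4 were also called higher in Il21r-/- with day as a block. Of all genes 5.92% were called in either direction with a linear day and 22.9% with day as a block. The 6 summed to 2643, 2524 and 2739 CPM in WT and to 3162, 2774 and 3621 in Il21r-/-, with Jchain as the most abundant. The part of dividing cells and of these other B cell states in the members' differences was not tested.

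The filter on low counts removed 3 members, of which Nol3 is better known as a repressor of apoptosis. Nol3 and Nol4 had 0 counts in all 6 libraries. Nol4l had between 3 and 10 counts per library. Exons of 13 of the 42 tested members share bases with exons of another gene of the GENCODE annotation, on the opposite strand for 12 of them. With protein-coding genes the largest shares were those of Nop9 with Cideb (29.9% of the exon bases of Nop9), Noc2l with Samd11 (20.9%) and Rrp7a with Serhl (11.0%), and with noncoding genes those of Utp23 (11.5%) and Utp14a (11.5%), all on opposite strands. The library kit does not mark strand, so reads from these bases cannot be told apart. Utp14b shares 206 exon bases with Acsl3 on the same strand, and the fold change of Acsl3 was 0.15 ± 0.12.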

How the data were processed

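The series holds 6 RNA-seq libraries. The authors aligned 100-base single-end reads of libraries made with a kit that does not mark strand to mm10 with Rsubread, counted them per gene with featureCounts and the inbuilt RefSeq annotation, and pooled technical replicates. They deposited whole-number read counts per gene with no normalization and no gene filter. CASAVA 1.8.2 is also named in the submitters' processing notes. Settings for strand and for reads that map to several places are not given in the sources used here. The gene length in the deposited table was used only to scale levels between genes.

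Symbols came from RefSeq's gene table of GRCm38.p6 for 25275 of 27179 Entrez identifiers and from GENCODE for 18 more. Counts were analysed in R 4.3.3 with edgeR 4.0.16, limma 3.58.1 and DESeq2 1.42.0. The filter removed genes with an average log2 CPM below 0, those of the Y chromosome, Ig variable genes and Xist, which left 11005, and TMM factors were computed. CPM are edgeR's, on TMM-scaled library sizes. The dispersion estimate was robust and used a model of genotype and a linear day, with 3 residual degrees of freedom. edgeR's quasi-likelihood test served for the genotype effect over 3 days, the day trend and the difference in day trend, and the genotype effect on each day was tested by likelihood ratio with a mean per day. Benjamini-Hochberg adjustment ran over all genes tested, with a threshold of 0.05. The genotype effect over 3 days, in both forms of the day term, was tested on simulated data, of which no value is given here.

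By the labels each day pairs a WT with an Il21r-/- library. After the genotype means were subtracted, the libraries of a day were correlated across 11005 genes with r = 0.64, 0.413 and 0.645 on days 7, 10 and 14. The linear day was not subtracted, so a trend with day shared by both genotypes enters these values too. They do not show pairing beyond a linear day. Because of the pairing by the labels, a fit with day as a block (2 residual degrees of freedom) was given beside each count of members it moved. Further alternatives used DESeq2's size factors, at least 10 counts in every library, no filter, the left-out genes kept, DESeq2's Wald test, edgeR's likelihood ratio test, a linear day kept in the fit by day, dispersions with day as a block, and each library left out in turn. Every alternative of the block fit itself was chosen after seeing the data.

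The members and lists were chosen with earlier results of these data known. Genes named singly were members past the threshold over 3 days in either form of the day term, the 3 highest and 3 lowest log2 fold changes, the 3 highest and 3 lowest levels per length, members past the threshold for the day trend, members below the filter, up to 5 called genes of each pathway list, and Il21r. Utp14a, as the paralog of Utp14b, and the remaining Pol I subunits and Rrp9, to complete the 2 small roles, were named in addition after their values had been seen. The pathway lists (Pol I factors, snoRNP proteins, small subunit, large subunit, exosome, abundant nucleolar proteins) and the marker lists (GC B cells, T cells, myeloid, erythroid and plasma cells, other B cells, dividing cells) were written from general knowledge, and 176 of their 177 names matched the table, the exception being Hbb-bt. Some genes of the marker lists as first planned are not reported here.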

Additional observations from a re-analysis of the deposited data

How the results depend on the processing

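Limits first: each genotype has 1 library per day, the labels do not settle how many mice a library holds, and standard errors near 0.1 on the log2 scale leave differences of the size seen in the members close to the threshold.

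With day as a block (the pairing of the libraries by day), 12 members were called higher in WT over 3 days and 1 higher in Il21r-/-. With a linear day these were 0 and 0. Of all genes 9.33% and 13.6% were called so with day as a block, against 1.4% and 4.52% with a linear day. With day as a block 9 members were called higher on day 14 than on day 7, where 12.6% of all genes were. The linear day trend called 0 members as rising, where 1.07% of all genes were. DESeq2's Wald test of that trend called 1 as rising, where 2.58% of all genes were. With dispersions from the fit with day as a block, 3 members were called higher in WT on day 14, against 0. Of all genes 3.51% were called so, against 0.73%. Leaving out 1 library in turn gave 0 to 9 members called higher in WT over 3 days. It gave 0 to 8 called rising with day and 0 to 1 called higher in WT on day 14. The shares of all genes in these calls ran from 0.22% to 8.70%, from 0.0% to 8.83% and from 0.74% to 2.04%. The median log2 fold change of the members was 0.13 to 0.20 in these fits. The highest of each of these ranges came without the Il21r-/- library of day 10. Where a left-out library was 1 of the 2 of a day, that day gave no comparison.

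With day as a block and both libraries of day 7, 10 or 14 left out, 9, 4 and 0 members were called higher in WT. Called higher in Il21r-/- were 0, 0 and 0. Of all genes 7.69%, 5.89% and 2.90% were called higher in WT, and 1291, 963 and 685 genes higher in Il21r-/-. The cause was not tested, and each of these fits has fewer samples. Single values under the alternatives were taken for the members called in either form of the day term and for Polr1c, Rrp36, Polr1d and Nop10. They were not taken for the other named members, such as Polr1a, Polr1b, Polr1e, Rrp9 and Utp14a. Among the members with such values, the signs of 4 close to 0 turned when 1 library was left out. These were Polr1c (−0.20 to 0.01 over the left-out libraries, above 0 at 0.0105 without Il21r-/- on day 14), Rrp36 (−0.10 to 0.07, above 0 at 0.0668 without Il21r-/- on day 14), Polr1d (−0.13 to 0.11, above 0 at 0.11, 0.07 and 0.02 without Il21r-/- on day 7, Il21r-/- on day 14 and WT on day 10) and Nop10 (−0.05 to 0.15, below 0 at −0.0490 and −0.01 without Il21r-/- on day 10 and WT on day 7). Of the other values taken for the members with such values, 194 kept their direction and, as with a linear day, did not pass the threshold. A further 20 kept their direction and passed it. Of these 20, those with day as a block were fixed in advance, since the members were chosen for passing there. The rest of the 20 all came without the Il21r-/- library of day 10. Sizes moved, most for Rrp1b (0.0938 to 0.54), Utp20 (0.23 to 0.77) and Nol8 (0.24 to 0.72). Outside this tally, Polr1a was called with a linear day without the Il21r-/- library of day 10, and Utp14a in some alternatives of the fit with day as a block. Under the other alternatives of the fit with day as a block, chosen after seeing the data, 8 (DESeq2's Wald test), 9 (left-out genes kept), 12 (at least 10 counts), 13 (no filter) and 13 (DESeq2's size factors) members were called higher in WT, where 7.02%, 8.52%, 9.30%, 6.96% and 10.4% of all genes were.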
